A study of Mus musculus with 12 samples.

Results

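The genes described here are the 10 that encode the NF-kB transcription factor subunits and the inhibitors that bind them, taken from 37991 genes counted in splenic resting B cells of the mouse. They were chosen by name, as the rows of the count table whose Ensembl identifiers map to Nfkb1, Nfkb2, Rel, Rela and Relb (5 subunits) and to Nfkbia, Nfkbib, Nfkbie, Nfkbid and Nfkbiz (5 inhibitors). All 10 were among the 13538 genes with enough counts to be tested, and their counts per sample ran from 705 for Nfkbib to 22171 for Nfkb1.

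RNA was sequenced from 2 genotypes at 2 times, with 3 samples in each of the 4 groups and 12 samples in all. The control group, called Cre-only, carried the CD23-iCre transgene, and the Runx1 c-k/o group carried the same transgene together with Runx1 alleles whose exon 4 is flanked by LoxP sites. Mice of both genotypes were 8 weeks old, and cells were taken either directly after isolation (0 h, at rest) or after 3 h of culture with anti-IgM, which engages the B cell receptor, and IL-4. The CD23 promoter drives Cre from the transitional stage of B cell development onward, so both genotypes expressed Cre, and the comparison between them is one of the floxed Runx1 alleles.

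NF-kB acts as a dimer of Rel-domain proteins. In resting B cells most dimers are held in the cytoplasm by IkB proteins, and signals from the B cell receptor lead to destruction of the IkBs and entry of the dimers into the nucleus, where several of the genes they switch on encode the inhibitors themselves. Rel and Nfkb1 products are the dimer partners best known for B cell growth and survival after receptor engagement, whereas Nfkb2 and Relb belong to the slower, noncanonical branch used by BAFF receptor and CD40.

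The promoters of members are shown because several carry the motif that the proteins of the subunit genes bind. Of the 10 members, 7 had at least 1 entry in the RefSeq promoter table (build GRCm38.p6, a later build than the mm9 of the counts), with 11 entries in all, and Nfkb1, Relb and Nfkbiz were not matched. The NF-kB consensus motif, searched on both strands of the 250 bases before each start, occurred in 7 of the 11 entries and in 5 of the 7 members, compared with 7.25% of 32817 promoters. One promoter of each of these 5 members is printed below, 5′ to 3′ and ending at the base before the start, with the bases covered by a match in capitals.
Rel, chr11:23770970-23771219, strand -: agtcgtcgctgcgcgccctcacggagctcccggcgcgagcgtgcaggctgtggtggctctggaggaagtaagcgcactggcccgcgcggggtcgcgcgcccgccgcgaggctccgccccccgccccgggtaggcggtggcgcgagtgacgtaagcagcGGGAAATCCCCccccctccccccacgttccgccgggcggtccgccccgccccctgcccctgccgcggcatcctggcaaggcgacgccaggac
Nfkb2, chr19:46304487-46304736, strand +: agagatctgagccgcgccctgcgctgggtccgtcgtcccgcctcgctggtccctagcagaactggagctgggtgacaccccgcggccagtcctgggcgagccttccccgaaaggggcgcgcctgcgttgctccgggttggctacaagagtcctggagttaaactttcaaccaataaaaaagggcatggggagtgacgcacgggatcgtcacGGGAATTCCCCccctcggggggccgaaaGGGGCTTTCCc
Nfkbia, chr12:55492648-55492897, strand -: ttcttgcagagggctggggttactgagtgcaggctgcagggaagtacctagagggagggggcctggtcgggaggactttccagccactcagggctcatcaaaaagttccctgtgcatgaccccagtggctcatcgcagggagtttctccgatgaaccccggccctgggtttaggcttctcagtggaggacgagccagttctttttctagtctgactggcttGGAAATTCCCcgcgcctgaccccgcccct
Nfkbie, chr17:45555450-45555699, strand +: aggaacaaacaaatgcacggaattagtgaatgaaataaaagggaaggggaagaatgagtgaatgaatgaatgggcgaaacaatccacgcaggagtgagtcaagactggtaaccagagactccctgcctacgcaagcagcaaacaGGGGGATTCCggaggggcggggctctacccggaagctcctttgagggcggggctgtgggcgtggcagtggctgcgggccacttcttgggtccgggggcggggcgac
Nfkbid, chr7:30422156-30422405, strand +: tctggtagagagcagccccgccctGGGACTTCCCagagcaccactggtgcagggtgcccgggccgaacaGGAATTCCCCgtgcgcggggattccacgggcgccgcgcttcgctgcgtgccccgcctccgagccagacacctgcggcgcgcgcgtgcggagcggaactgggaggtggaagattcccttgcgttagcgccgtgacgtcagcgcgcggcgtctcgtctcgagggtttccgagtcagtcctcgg
Counting back from the start, with the base before it at -1, the match of Rel covered -92 to -82, that of Nfkbia -29 to -20 and that of Nfkbie -106 to -97. Nfkb2 held 2 matched stretches, at -39 to -29 and -11 to -2, and Nfkbid also held 2, at -226 to -217 and -181 to -172. The printed Nfkb2 and Nfkbid promoters are 1 of 3 entries for each gene, and which start the B cells used was not determined from counts per gene. The RUNX motif, TGTGGT or TGCGGT on either strand, occurred in 18.6% of all promoters and in 2 of the 11 entries, at -202 to -197 in the Rel promoter above and at -187 to -182 in another entry of Nfkbid. A match describes the letters only, and binding was not measured here.

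The libraries held 14442251 to 23641552 counts. Runx1 itself, counted over all its exons so that loss of exon 4 cannot be separated, measured 81.8 to 86.6 normalized CPM (counts divided by the normalized library size, in units of 1000000 counts) in resting Cre-only samples, against 95.6 to 102.6 when the Runx1 alleles were floxed. At 3 h it measured 34.9 to 38.5 and 47.3 to 74.4 CPM. The log2 difference, c-k/o minus Cre-only, was 0.25 at rest and 0.8 at 3 h (adjusted p = 0.548 and 0.0077 by edgeR). The latter passed in 14 of 15 alternative fits. The gene-level count thus did not fall in the c-k/o samples and does not check their labels. The 7 matched B cell markers summed to at least 2603.7 CPM in every sample, with 8278.6 to 8661.0 CPM in resting and 2831.2 to 3052.8 CPM in 3-h Cre-only samples, and 9 T cell markers to at most 14.7 CPM. Erythroid and platelet markers, 5 genes, summed to 41.2 to 244.7 CPM in resting Cre-only cells and 239.6 to 393.2 in resting c-k/o cells, and at 3 h to 14.2 to 129.9 and 112.7 to 200.5. Myeloid markers, 9 genes with Csf1r the highest, summed to 228.0 to 281.1 CPM at rest and 14.6 to 21.2 at 3 h in Cre-only cells, and to 194.6 to 382.9 and 17.2 to 39.8 in c-k/o cells. The part of these cells in the members' values was not tested.

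Replicate 1 of the 3-h c-k/o cells and replicate 2 of the resting c-k/o cells stood apart. The deviation of a gene in a sample is its log2 CPM minus the mean of its group. In these samples the median deviation of 2797 genes with transcripts under 1500 bases exceeded that of 2235 genes with transcripts over 5000 bases by 0.53 and 0.33, and in Cre-only samples this gap lay between -0.03 and 0.02. The other c-k/o samples had gaps of the opposite sign, -0.171 and -0.161 at rest and -0.171 and -0.377 at 3 h, each measured against a group mean that includes the sample that stands apart. The counts of genes called are given with and without both of these samples, a choice made after the data were seen.

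Subunit and inhibitor mRNAs were first set in order at rest. To compare genes, normalized CPM was divided by the length of each gene's merged exons in kb. In resting Cre-only cells Rel, which encodes c-Rel, had the highest level of the 10, at 238.1 ± 13.5 CPM per kb (SD, n = 3). Nfkbid, which encodes the nuclear inhibitor IkBNS, followed at 133.7 ± 6.99 CPM per kb and Nfkbia, which encodes IkBalpha, at 109.6 ± 3.25 CPM per kb. Nfkb2 and Nfkb1, the genes of the p100 and p105 precursors, came next with 77.8 ± 4.51 and 69.2 ± 1.12 CPM per kb. Nfkbie, the gene of IkBepsilon, had 56.3 ± 5.71 CPM per kb, Rela, the gene of p65, 40.6 ± 1.56, and Relb 25.6 ± 1.67. The lowest pair, Nfkbiz (the nuclear inhibitor IkBzeta) at 20.8 ± 2.26 and Nfkbib (IkBbeta) at 20.5 ± 0.291 CPM per kb, overlapped in their sample ranges, and no other neighbours in this order did.

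Rel thus made up 52.7 ± 1.05% of the summed subunit level in resting Cre-only cells, and Nfkb2, Nfkb1, Rela and Relb made up 17.2, 15.3, 9.02 and 5.68%. Among inhibitors, Nfkbid held 39.2 ± 0.718% and Nfkbia 32.2 ± 1.83%, with Nfkbie at 16.5%. After 3 h of activation the order in Cre-only cells had changed. Nfkb1 made up 30.5 ± 0.414% of the subunits and Rel 43.1 ± 0.977%, and Nfkbie was the most abundant inhibitor per length with 32.8 ± 1.45% of the inhibitor sum. Nfkbid held 20.4 ± 0.444% of that sum. In 3-h c-k/o cells Nfkb1 made up 38.7 ± 4.34% of the subunits and Rel 30.5 ± 11.6%, with Rel at 17.5% in replicate 1. Nfkbia held 32.6 ± 0.798% and Nfkbie 29.5 ± 2.23% of the inhibitor sum in these cells. These shares are descriptions without a test. They rest on the merged exon length, and with the longest transcript as the length the resting levels of Nfkbid and Nfkb1 were 153.8 and 80.5 CPM per kb, with the latter above the 79.8 of Nfkb2.

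**Figure D1:**
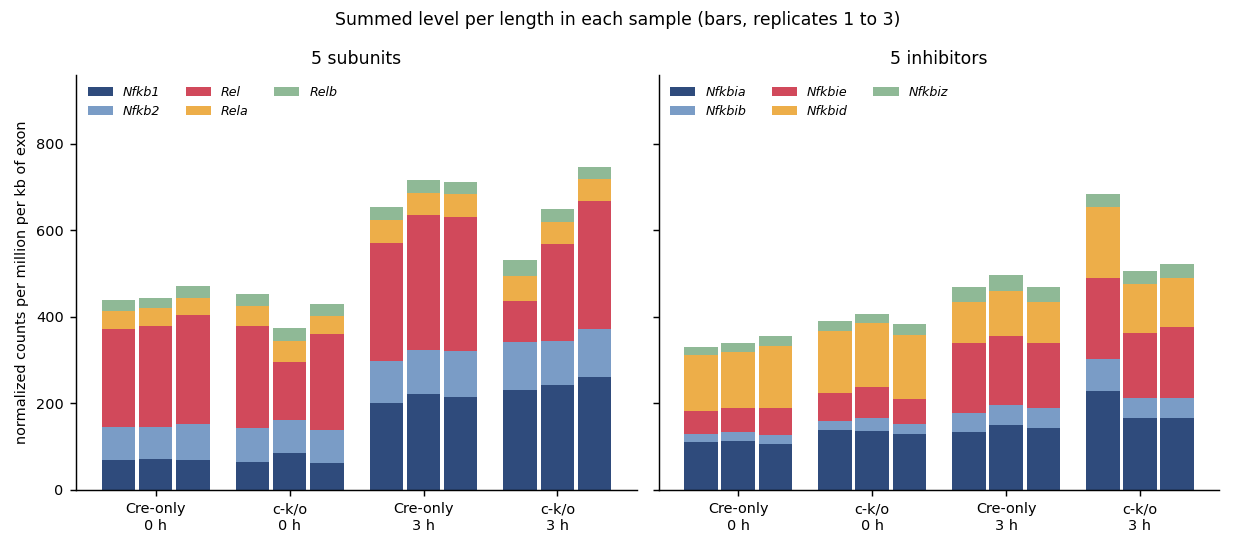
Summed levels of the 5 subunits (left) and the 5 inhibitors (right) in normalized CPM per kb of merged exon (vertical axis), with 1 stacked bar per sample, replicates 1 to 3 from left to right in each of the 4 groups. In the Cre-only samples Rel is the largest subunit segment at both times, the Nfkb1 segment grows by 3 h and the leading inhibitor changes from Nfkbid to Nfkbie; c-k/o replicate 1 at 3 h has the smallest Rel segment.

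The next question was how the members changed on activation, first in Cre-only cells. Activation here means 3 h of culture with anti-IgM and IL-4, set against cells taken directly after isolation. No group was cultured without anti-IgM and IL-4, so changes from the stimulus and changes from culture cannot be told apart. Of the 10 members, 7 rose, 1 fell and 2 did not pass the test, where 38.6% of all tested genes rose and 36.4% fell (75.1% in either direction, edgeR's quasi-likelihood F test, Benjamini-Hochberg adjusted p under 0.05). The members' median log2 fold change was 0.38, compared with 0.03 over all tested genes. The largest rises were those of Nfkb1, Nfkbie and Nfkbib, and Nfkbid was the member that fell. In bulk RNA a change in the share of one cell type and a change in RNA per cell cannot be told apart, and CPM shows levels relative to the other RNAs of the sample.

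Among the subunits, Nfkb1 (ENSMUSG00000028163, 26 merged exons at mm9 chromosome 3, 135247619 to 135354511, minus strand) had 331.3, 337.0 and 326.3 CPM in resting Cre-only cells and 956.0, 1061.8 and 1027.4 CPM at 3 h. Every 3-h sample was far above every resting one. The log2 fold change was 1.61 (SE 0.119, adjusted p = 1.71e-07), a 3.06-fold rise. Nfkb2 (ENSMUSG00000025225, chromosome 19, 46379227 to 46386580, plus strand), whose exons share 4 bases with those of Psd on the other strand, rose from 251.3, 243.6 and 272.3 CPM to 319.6, 332.3 and 347.1 CPM. Its samples did not overlap, and its log2 fold change was smaller, 0.38 (SE 0.0807, adjusted p = 0.000933). Rela (ENSMUSG00000024927, chromosome 19, 5637483 to 5648130, plus strand) measured 112.5, 113.2 and 105.5 CPM at rest and 145.8, 140.4 and 144.5 CPM at 3 h. Its rise was of similar size, 0.38 (SE 0.0874, adjusted p = 0.00173).

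Rel (ENSMUSG00000020275, chromosome 11, 23641514 to 23670970, minus strand) measured 636.4, 653.8 and 709.0 CPM at rest and 766.2, 876.5 and 868.4 CPM at 3 h. All 3 activated samples were above all 3 resting samples, but the log2 fold change of 0.33 (SE 0.32, adjusted p = 0.365) did not pass in the fit of all 12 samples, in which the c-k/o samples enter the estimate of spread. With the Cre-only samples alone the same comparison gave 0.27 and an adjusted p of 0.000421 by edgeR. Rel also passed in the fit without the 2 c-k/o samples that stand apart, in which 8 members rose and 1 fell (40.3% and 41.8% of all genes). Relb (ENSMUSG00000002983, chromosome 7, 20191566 to 20214787, minus strand) had 97.7, 94.6 and 107.1 CPM at rest and 110.7, 112.6 and 112.0 CPM at 3 h. The groups lay close together without overlapping, and the log2 fold change of 0.16 (SE 0.109, adjusted p = 0.192) did not pass.

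Among the classical inhibitors, which retain dimers in the cytoplasm, Nfkbie (ENSMUSG00000023947, chromosome 17, 45692665 to 45700118, plus strand) measured 125.8, 131.1 and 152.0 CPM at rest and 392.2, 384.4 and 363.1 CPM at 3 h. The 2.79-fold rise (log2 1.48, SE 0.108, adjusted p = 1.67e-07) was next in size to that of Nfkb1. Nfkbib (ENSMUSG00000030595, chromosome 7, 29543270 to 29552531, minus strand) went from 44.8, 44.7 and 43.7 CPM to 94.9, 100.2 and 101.5 CPM, with no overlap. The log2 fold change was 1.16 (SE 0.179, adjusted p = 8.6e-05). Its exons share 42 bases, 1.94% of their length, with Sirt2 on the other strand, and the strand setting of the counting is not given in the sources used here.

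Nfkbia (ENSMUSG00000021025, chromosome 12, 56590398 to 56593634, minus strand), a textbook NF-kB target, measured 172.2, 178.3 and 168.1 CPM at rest and 211.6, 237.1 and 225.9 CPM at 3 h. The activated samples were all higher, by 0.38 on the log2 scale (SE 0.118, adjusted p = 0.0111), and its mean rose from 172.9 to 224.8 CPM. Its change was thus smaller than those of Nfkbie and Nfkbib at this time, although the differences between these genes were not tested.

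The nuclear inhibitors, which bind dimers on chromatin and modulate subsets of targets, moved in opposite directions. Nfkbid (ENSMUSG00000036931, chromosome 7, 31206751 to 31213765, plus strand) had 301.7, 306.9 and 332.4 CPM at rest and 221.9, 242.9 and 221.0 CPM at 3 h. All activated samples were below all resting ones, and the gene fell by 0.46 on the log2 scale (SE 0.132, adjusted p = 0.00734). Nfkbiz (ENSMUSG00000035356, chromosome 16, 55811488 to 55839012, minus strand) rose from 93.5, 103.3 and 116.0 CPM to 174.8, 184.9 and 174.2 CPM. That was 1.71-fold, or 0.77 on the log2 scale (SE 0.0909, adjusted p = 7.65e-06), with no overlap between samples.

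**Figure D2:**
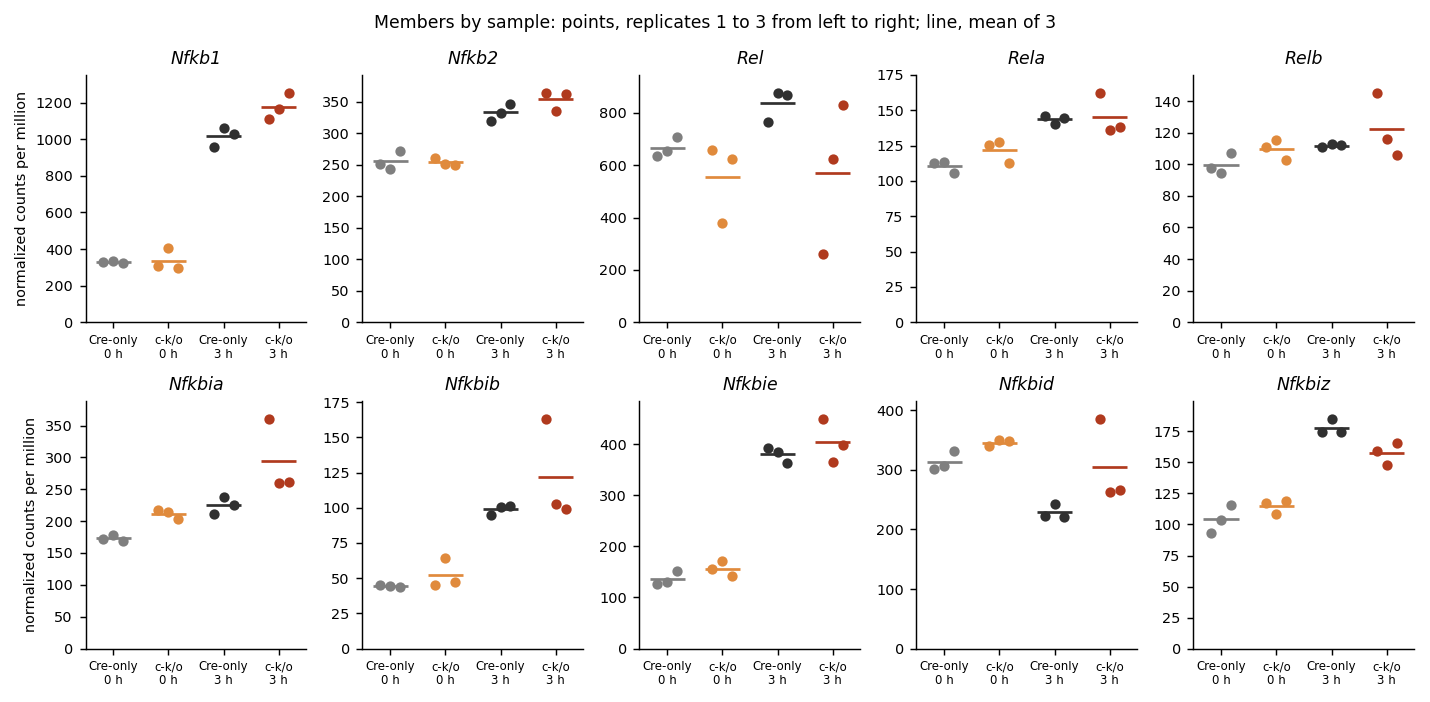
Normalized CPM (vertical axis, from 0 in each panel) of the 10 members in the 12 samples, with points for replicates 1 to 3 from left to right and a line at the mean of 3, by genotype and time. Nfkb1, Nfkbie and Nfkbib rise in both genotypes, Nfkbid is lower at 3 h than at rest in Cre-only cells, and Rel spreads from 260.2 to 829.0 CPM in the 3-h c-k/o samples.

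The same change was then measured in Runx1 c-k/o cells. Here 7 of 10 members rose, 0 fell and 3 did not pass, against 37.7% of tested genes that rose and 36.6% that fell (74.3% in all). The 7 that rose were the same genes as in Cre-only cells. Nfkb1 went from 309.7, 404.7 and 297.1 CPM at rest to 1109.0, 1164.5 and 1253.4 CPM at 3 h (log2 1.8, SE 0.119, adjusted p = 1.02e-07). Nfkbie went from 155.3, 171.6 and 142.2 to 448.6, 365.3 and 398.2 CPM (log2 1.37, adjusted p = 3.54e-07), and neither gene's samples overlapped. Nfkbib went from 45.4, 64.3 and 47.1 to 162.9, 102.6 and 99.0 CPM, with replicate 1 at 3 h above the rest (log2 1.22, adjusted p = 5.77e-05).

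The smaller rises in c-k/o cells were 0.48 for Nfkb2, 0.47 for Nfkbia, 0.46 for Nfkbiz and 0.26 for Rela on the log2 scale (adjusted p = 0.000159, 0.00294, 0.000606 and 0.0182). Rela, with 125.5, 127.4 and 112.4 CPM at rest and 162.3, 136.1 and 138.3 at 3 h, was the least firm of these and passed in 9 of 16 alternative fits. It did not pass without replicate 1 of the 3-h c-k/o cells (0.16, adjusted p = 0.0513 by edgeR) or without replicate 3 of the resting ones (0.20, adjusted p = 0.0814). Relb had 111.0, 115.4 and 102.7 CPM at rest and 145.2, 115.8 and 105.7 at 3 h, and the groups overlapped. Its log2 difference was 0.16 with an adjusted p of 0.214, and it passed without replicate 3 at 3 h (0.25, adjusted p = 0.0486 by edgeR).

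Nfkbid did not pass in c-k/o cells in the reported fit, and passed in 4 of 16 alternative fits. It measured 340.1, 349.6 and 348.3 CPM at rest and 385.3, 263.4 and 266.0 CPM at 3 h, so that replicate 1 lay above the resting samples and the other two below them. The log2 difference was -0.18 (SE 0.131, adjusted p = 0.225). Without replicate 1 at 3 h it was -0.40 (adjusted p = 0.000607 by edgeR), close to the Cre-only value. Without both samples that stand apart it was -0.42 (adjusted p = 1.54e-05), and 7 members then rose and 1 fell (38.4% and 38.9% of all genes). Rel had 656.8, 380.8 and 624.4 CPM at rest and 260.2, 625.2 and 829.0 at 3 h, with complete overlap and a log2 difference of 0.04 (SE 0.32, adjusted p = 0.906).

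The activation values of the smaller changes depended on a factor of unwanted variation. When 1 such factor (RUVs) was added to edgeR, Nfkbia had a log2 difference of -0.02 in Cre-only cells (adjusted p = 0.907) and Rel one of 1.81 (adjusted p = 1.71e-05), while the factor itself was 0.636 to 0.699 in resting and -0.497 to -0.424 in activated Cre-only samples and so moved with activation. In c-k/o cells the same fit of all samples gave -0.67 for Nfkbid and 1.48 for Rel (adjusted p = 0.000415 and 8.47e-05). The rises of Nfkb1, Nfkbie, Nfkbib and Nfkbiz passed in both genotypes in all 16 alternatives, with lowest log2 values of 1.40, 1.10, 0.30 and 0.61 in Cre-only and 1.64, 1.02, 0.35 and 0.35 in c-k/o cells. Scaling by total counts alone moved the median log2 change of all genes in c-k/o cells from 0.005 to -0.112, and by about as much in Cre-only cells (0.027 to -0.096).

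**Figure D3:**
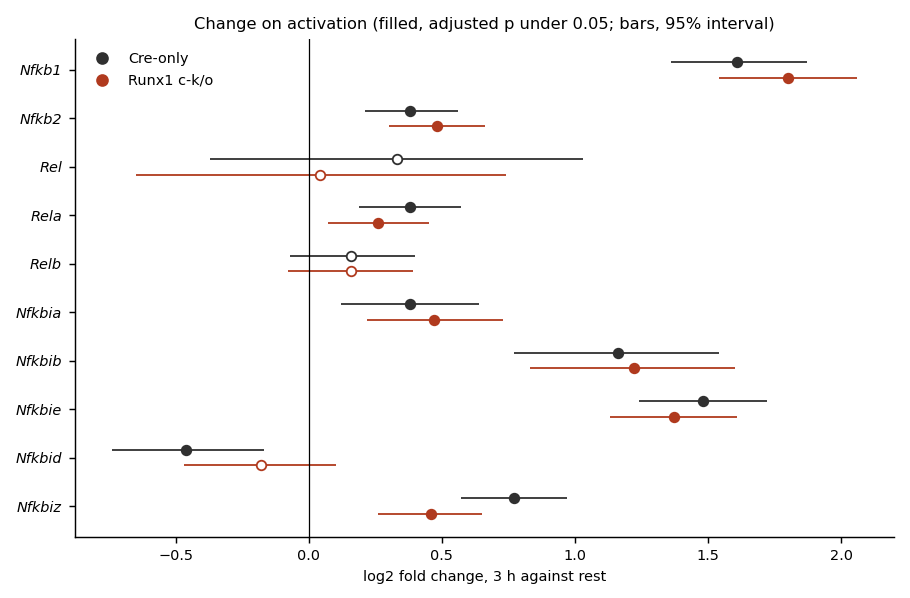
Log2 fold change of each member at 3 h against rest (horizontal axis) in Cre-only (dark) and Runx1 c-k/o (red) cells, with 95% intervals from the edgeR fit as bars; filled points had an adjusted p under 0.05. Nfkb1, Nfkbie and Nfkbib have the largest values in both genotypes, and the intervals of Rel span 0 in both.

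Whether the change on activation differed between genotypes was tested as an interaction. By edgeR 0 of 10 members passed, against 0.0813% of all tested genes, 1 member had an unadjusted p under 0.05, and DESeq2's Wald test called 0 members (0.584% of genes). The member with the unadjusted p under 0.05 was Nfkbiz, and 3.5% of all tested genes had a smaller unadjusted p. Its rise was smaller in c-k/o cells, with a log2 difference of -0.31 (95% interval -0.59 to -0.03, adjusted p = 0.87 by edgeR). Its 3-h values were 159.2, 148.1 and 166.1 CPM in c-k/o cells, all under the Cre-only values above, from resting values of 117.0, 108.6 and 119.2 CPM. For Nfkb1 the difference was 0.19 (95% interval -0.18 to 0.55), and without the 2 samples that stand apart it was 0.40 with an adjusted p of 0.0174, the 1 member that passed in that fit (1.38% of all genes).

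The comparison of genotypes asks whether loss of Runx1 changed the members at a given time. At rest, 0 of 10 members passed by edgeR, against 1.49% of all tested genes, and 0 passed by DESeq2 (2.79%). The median of the members' log2 differences (c-k/o minus Cre-only) was 0.14, compared with 0.03 over all tested genes. At an unadjusted p under 0.05 there was 1 member, Nfkbia (11.1% of all genes). In 3 of 10 members, Nfkbia, Nfkbib and Nfkbid, all c-k/o samples lay above all Cre-only samples, and 23.7% of all tested genes separated the genotypes in one direction or the other.

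Nfkbia had 217.2, 214.3 and 204.0 CPM in resting c-k/o cells, above the 168.1 to 178.3 CPM of Cre-only cells. The log2 difference was 0.29 (SE 0.118, 95% interval 0.04 to 0.55, adjusted p = 0.367). Nfkbid was 0.14 higher on the log2 scale (95% interval -0.14 to 0.43) and Nfkbib 0.24 higher (95% interval -0.16 to 0.63), with most of the latter from replicate 2. For Nfkb1, Nfkb2, Rela, Relb, Nfkbie and Nfkbiz the log2 differences lay between -0.01 and 0.20, and the sample ranges overlapped. Rel was low in c-k/o replicate 2 (380.8 CPM), with replicate 1 within and replicate 3 just under the Cre-only range, and its interval was wide (-0.96 to 0.43). Without the 2 samples that stand apart, Nfkbia alone of the members passed (0.28, adjusted p = 0.00786), in a fit that called 4.4% of all genes.

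At 3 h, again 0 of 10 members passed by edgeR (2.77% of all tested genes), and the members' median log2 difference was 0.11 against 0.01 for all genes. DESeq2's Wald test called 2 members, Nfkbia and Nfkbid, where it called 5.44% of all genes. These were also the 2 with an unadjusted p under 0.05 in edgeR (16.2% of all genes). In 4 members the genotypes did not overlap, with Nfkb1, Nfkbia and Nfkbid higher and Nfkbiz lower in every c-k/o sample, and 21.8% of all tested genes separated in this way.

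Nfkbia measured 360.0, 260.4 and 261.7 CPM in 3-h c-k/o cells, so replicate 1 was highest, but all were above the 211.6 to 237.1 CPM of Cre-only cells. The log2 difference was 0.39 (SE 0.117, 95% interval 0.13 to 0.64, adjusted p = 0.119 by edgeR). DESeq2 gave 0.43 with an adjusted p of 0.0309. Nfkbid showed the same arrangement, and its log2 difference was 0.42 (SE 0.132, 95% interval 0.13 to 0.70, adjusted p = 0.14 by edgeR). DESeq2 gave 0.46 with an adjusted p of 0.0427. Without replicate 1 of the 3-h c-k/o cells both differences were 0.24 by edgeR, and their adjusted p over all alternatives ranged from 0.00101 to 0.362 for Nfkbia and from 0.00306 to 0.362 for Nfkbid.

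Without both samples that stand apart, edgeR called 3 members at 3 h, Nfkb1 (0.27, adjusted p = 0.00591), Nfkbia (0.24, adjusted p = 0.0156) and Nfkbid (0.23, adjusted p = 0.023), where it called 6.8% of all genes. Leaving out samples because they deviate also lowers the spread on which the test rests. In the fit of all samples Nfkb1 differed by 0.21 (95% interval -0.05 to 0.47) and Nfkbiz by -0.17 (95% interval -0.37 to 0.02). Nfkb2, Rela, Relb and Nfkbie differed by 0.09, 0.02, 0.13 and 0.09, with intervals that reached no further than 0.37 in either direction.

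**Figure D4:**
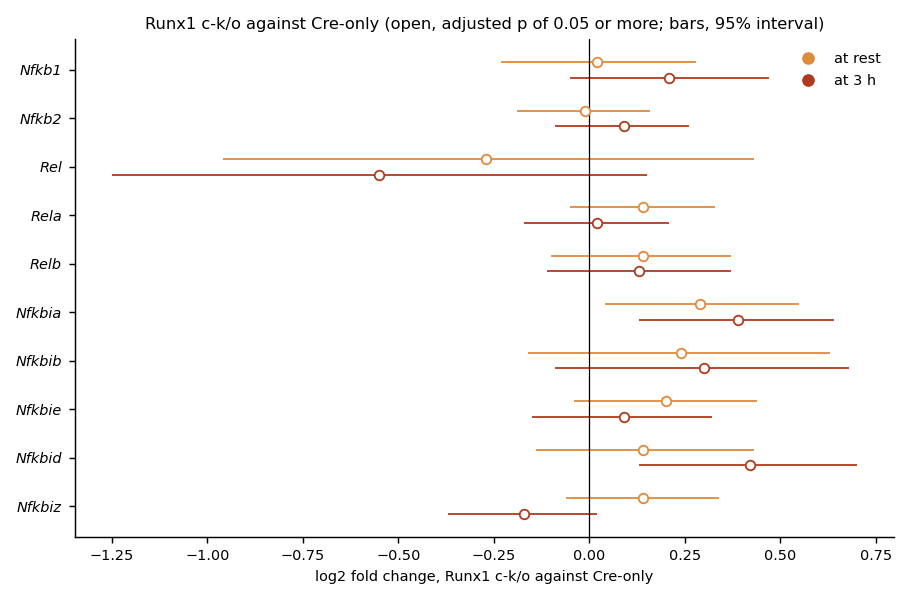
Log2 fold change of each member between genotypes, Runx1 c-k/o over Cre-only (horizontal axis) at rest (orange) and at 3 h (red), with 95% intervals from the edgeR fit; open points had an adjusted p of 0.05 or more. The intervals of Nfkbia at both times and of Nfkbid at 3 h lie above 0 before adjustment, and that of Rel at 3 h runs from -1.25 to 0.15.

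Rel was set apart from the other members by its spread in c-k/o cells. The SD of its log2 CPM was 0.434 at rest and 0.871 at 3 h, larger than in 85.3% and 95.3% of tested genes, compared with 0.081 and 0.108 in Cre-only cells. The low samples were replicate 2 at rest, at -0.81 on the log2 scale against the mean of resting Cre-only cells, and replicate 1 at 3 h, at -1.69. These are the samples in which genes with long transcripts deviated downward. The other c-k/o samples lay between -0.42 and -0.01 for Rel. In the same 3-h sample Nfkbid, Nfkbib and Nfkbia were 0.75, 0.72 and 0.68 above the Cre-only mean. The longest transcript of Rel has 2799 bases and falls in neither of the length classes compared above. Members with longer transcripts were also set against the Cre-only mean, in replicate 2 at rest and replicate 1 at 3 h. Nfkb1 (4117 bases) was at 0.29 and 0.13, and Nfkbiz (4115 bases) at 0.06 and -0.16. Relb (3273 bases) was at 0.21 and 0.38, and Nfkb2 (3205 bases) at -0.03 and 0.13. The part of the length pattern in these values was not tested. At 3 h the log2 difference between genotypes for Rel was -0.55 (95% interval -1.25 to 0.15, adjusted p = 0.402 by edgeR). It was -0.18 without replicate 1 of the 3-h c-k/o cells and -0.92 without replicate 3 (adjusted p = 0.841 and 0.106 by edgeR). With DESeq2 and 1 RUVs factor it was -0.36 (adjusted p = 0.0283), in a fit that called 1244 of all genes.

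The pattern over the 12 samples was compared between each member and 13528 other tested genes, as the root mean square difference of log2 CPM after subtracting each gene's mean. The nearest genes to Rel were Atm (0.108) and Usp34 (0.119), the genes of a DNA damage kinase and a deubiquitinase. Both were low in the 2 samples that stand apart: Atm had 72.0 CPM in replicate 2 of the resting and 48.6 in replicate 1 of the 3-h c-k/o cells, against 126.0 to 170.5 in the other c-k/o samples. No other member came closer to Rel than 0.52. Nfkb1 was nearest to B4galt5 (0.067) and Sh2d2a (0.09), and its closest fellow member was Nfkbie (0.208). Nfkbib was nearest to Bsg and Eif3i (0.038 and 0.047), Nfkbie to Hspa4 and Zfp764 (0.071 and 0.079), and Nfkbia to Traf4 and Ppp2cb (0.089 and 0.092). The nearest to Nfkbid were Ppp3ca and Rab11a (0.081 and 0.085), to Nfkbiz Tmem188 and Tmem33 (0.067 and 0.077), to Nfkb2 Tial1 and Senp6 (0.038 and 0.053) and to Relb Prpsap1 and Ddx47 (0.054 and 0.067). This is a likeness over samples of 4 groups and carries no test.

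**Figure D5:**
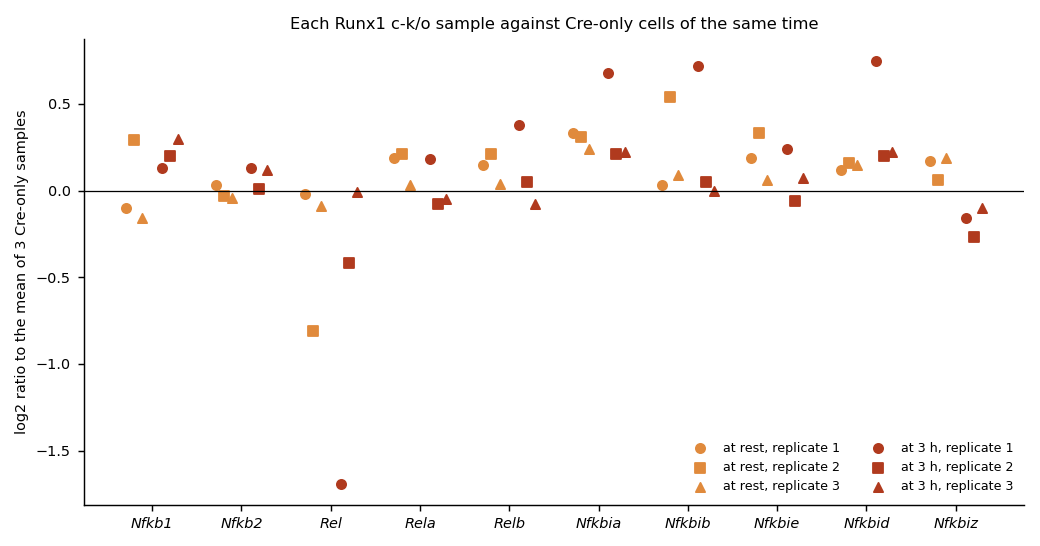
Log2 ratio of each c-k/o sample to the mean of the 3 Cre-only samples of the same time (vertical axis) for the 10 members, at rest (orange) and at 3 h (red), with a symbol for each replicate. Rel in replicate 2 at rest (-0.81) and replicate 1 at 3 h (-1.69) lies below all other points. Nfkbia and Nfkbid lie above 0 in all 6 samples, and Nfkbib at 0.0 or above.

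Per length, the ratio of the summed inhibitors to the summed subunits was 0.749, 0.764 and 0.753 in resting Cre-only cells and 0.863, 1.09 and 0.891 in resting c-k/o cells, which did not overlap. At 3 h it was 0.719, 0.692 and 0.658 in Cre-only and 1.29, 0.779 and 0.70 in c-k/o cells, which did. The highest c-k/o value at each time belonged to the sample with the lowest Rel. Since Rel is part of the subunit sum that divides the ratio, a low Rel raises the ratio by construction. The other resting c-k/o samples had Rel at 51.8 and 52.0% of the subunits. The range in resting Cre-only cells was 51.7 to 53.8%. The inhibitor sum, which holds no Rel, was 382.1 to 407.0 CPM per kb in resting c-k/o and 329.0 to 354.3 in resting Cre-only cells. At 3 h it was 505.0 to 684.6 and 468.9 to 495.6. The part of either sum in the ratio was not tested. The ratio is a description of mRNA and no measure of protein.

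Other genes of the pathway were counted in 3 lists. The first held 26 kinases, adaptors and ubiquitin ligases that switch NF-kB on. None of the 26 passed between genotypes by edgeR at rest (1.49% of all genes) or at 3 h (2.77%), 3 and 6 had an unadjusted p under 0.05 (11.1% and 16.2% of all genes), and DESeq2's Wald test called 1 and 2 (2.79% and 5.44%). Without the 2 samples that stand apart edgeR called 2 and 3 (4.4% and 6.8%). On activation 7 rose and 13 fell in each genotype (38.6% and 36.4% of all genes in Cre-only, 37.7% and 36.6% in c-k/o cells). Without those samples 7 rose and 16 fell in Cre-only (40.3% and 41.8% of all genes) and 6 and 16 in c-k/o cells (38.4% and 38.9%). In the fit of all samples the list had a median log2 change of -0.18 in Cre-only and -0.20 in c-k/o cells. Traf5, a TNF receptor adaptor, fell by 2.04 in Cre-only cells (SE 0.11, adjusted p = 2.52e-08). Tank, an adaptor of TBK1, and Ube2n, a ubiquitin-conjugating enzyme, were higher by 1.26 and 1.11 (adjusted p = 8.32e-08 and 5.33e-06). In c-k/o cells the values of Traf5, Tank and Ube2n were -1.63, 1.24 and 1.20.

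The second list held 21 further inhibitors and brakes of the pathway. Of these, 0 passed between genotypes at rest and at 3 h by edgeR, with 3 and 6 at an unadjusted p under 0.05 and 1 and 1 called by DESeq2's Wald test. Over all genes edgeR called 1.49% and 2.77%, 11.1% and 16.2% had such an unadjusted p, and DESeq2 called 2.79% and 5.44%. Without the 2 samples that stand apart edgeR called 1 and 4 (4.4% and 6.8%). On activation 8 rose and 9 fell in Cre-only cells (38.6% and 36.4% of all genes), and 7 rose and 9 fell in c-k/o cells (37.7% and 36.6%). Without those samples 8 rose and 10 fell in Cre-only (40.3% and 41.8% of all genes) and 7 and 11 in c-k/o cells (38.4% and 38.9%). Nkrf, a repressor of NF-kB targets, and Tnip2, a partner of A20, rose by 1.22 and 1.00 in Cre-only cells (adjusted p = 2.88e-07 and 1.58e-06), whereas Tnip1, a related A20 partner, and Pdlim2, a ubiquitin ligase for p65, fell by 1.05 and 1.43 (adjusted p = 1.51e-07 and 1.12e-06). In c-k/o cells Tnip2, Nkrf and Tnip1 had values of 1.19, 1.07 and -1.0, and Tax1bp1, an A20 adaptor, fell by 0.85 (adjusted p = 7.06e-07).

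The third list held 36 textbook NF-kB targets, 34 of which were tested, and shares Birc3 with the first list and Tnfaip3 and Bcl3 with the second. On activation 22 rose and 9 fell in each genotype, against 38.6% and 36.4% of all genes in Cre-only and 37.7% and 36.6% in c-k/o cells. Without the 2 samples that stand apart the counts were the same in Cre-only (40.3% and 41.8% of all genes) and 22 and 11 in c-k/o cells (38.4% and 38.9%). The median log2 change was 1.17 in Cre-only and 1.19 in c-k/o cells, compared with 0.03 and 0.00 over all genes. Stat5a and Cflar, the latter an inhibitor of caspase-8, rose by 3.06 and 2.26 in Cre-only cells (adjusted p = 2.6e-08 and 3.31e-08) and by 2.66 and 2.25 in c-k/o cells. Lta, a cytokine gene, and Junb, an AP-1 factor, fell by 2.78 and 2.73 in Cre-only cells (adjusted p = 1.76e-08 and 5.87e-08). In c-k/o cells Lta fell by 2.18 and Ltb by 4.15 (adjusted p = 6.79e-08 and 2.08e-07).

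Between genotypes, 1 of the 34 targets passed at rest and 4 passed at 3 h by edgeR (1.49% and 2.77% of all genes). At an unadjusted p under 0.05 there were 6 and 13 (11.1% and 16.2% of all genes), and DESeq2's Wald test called 2 and 5 (2.79% and 5.44%). The list was chosen with earlier results of these data known, so these counts cannot be read as an excess among targets. Without the 2 samples that stand apart edgeR called 4 and 9 (4.4% and 6.8%), and Junb did not pass (0.75, adjusted p = 0.075). Slc2a6, a lysosomal sugar transporter, was lower in c-k/o cells at both times, with 3.31 ± 1.40 against 10.7 ± 0.523 CPM at rest (SD, n = 3; log2 -1.69, adjusted p = 0.00152 by edgeR) and 27.7 ± 0.507 against 81.9 ± 5.34 CPM at 3 h (log2 -1.56, adjusted p = 0.000362 by edgeR). Higher at 3 h were Junb, with 290.8 ± 60.7 against 162.9 ± 22.6 CPM (log2 0.84, adjusted p = 0.0189), and Tnfrsf13c, the BAFF receptor, with means of 456.1 against 336.5 CPM (log2 0.44, SE 0.0938, adjusted p = 0.0259). The remaining one was Lta (log2 0.67, adjusted p = 0.0405), named after its values were seen. Junb and Tnfrsf13c did not pass with only the 2 groups compared (adjusted p = 0.0803 and 0.071 by edgeR), and neither Junb nor Tnfrsf13c passed in every fit that left out 1 sample.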

How the data were processed

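RNA from splenic resting B cells, isolated by negative selection, was made into stranded poly(A) libraries and sequenced as paired ends in 12 samples. The authors aligned the reads to mm9 with TopHat2 2.0.11 and counted them per gene with featureCounts, and the deposited values are raw read counts without normalization. The strand setting is not given in the sources used here. Base calls were made with CASAVA 1.8.4, per the submitters' processing notes.

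Genes were kept by filterByExpr of edgeR 4.0.16 (R 4.3.3) at its default of 10 counts (13538 genes). Libraries were scaled by TMM, and the robust quasi-likelihood fit held 1 term for each of the 4 groups. Genes were called at a Benjamini-Hochberg adjusted p under 0.05 over all tested genes. Standard errors and 95% intervals are those of the fitted model. The 3 replicates of a group are called biological in the study's methods, and p-values measure the spread between these samples. With 3 against 3, an exact permutation test of 1 gene cannot give a p under 0.1. Depth sets the floor of 3 counts at 0.127 to 0.208 CPM, which covers counting error only.

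The authors tested with DESeq2 and RUV-seq factors, whose number and control genes are not given in the sources used here. Alternatives were DESeq2 1.42.0 size factors and Wald test, 1 RUVs factor with either tool, other count filters, only the groups compared, replicate blocks, leaving out each sample in turn and, added after the data were seen, leaving out the 2 samples that stand apart. In Cre-only cells, samples with the same replicate number deviated together at rest and at 3 h, with correlations of 0.275, 0.176 and 0.144. Those with different numbers correlated between -0.192 and 0.005. What the samples of 1 number shared is not given by the labels. For the c-k/o samples the same-number correlations were -0.254, -0.264 and 0.254. They cannot decide whether c-k/o samples were paired, because the 2 samples that stand apart have different numbers and correlated at 0.477. Between genotypes, same-number correlations were 0.011, 0.027 and 0.068 at rest and -0.049, -0.067 and 0.01 at 3 h. Whether any mouse supplied both resting and activated cells is not given in the sources used here. The reported fit held no term for the replicate number, also in the test of activation.

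Exon lengths and mm9 positions came from the GENCODE annotation of NCBIM37 and promoters from RefSeq. The fit was tested on simulated data. Named genes were all members, Runx1 and, of each pathway list, the 2 genes in each direction with the smallest adjusted p. The members and lists were chosen with earlier results of these data known. Some genes that these rules select are not reported here. Protein sequences were not used here.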

Additional observations from a re-analysis of the deposited data

How the results depend on the processing

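Of the members, Nfkb1, Nfkbie, Nfkbib and Nfkbiz kept their call and direction on activation in both genotypes in every alternative. Between genotypes the number of members called at 3 h was 0 in the reported fit, 2 with DESeq2's Wald test, 2 with edgeR and 1 RUVs factor, 3 with DESeq2 and 1 RUVs factor and 3 without the 2 samples that stand apart. Without those samples it was 1 at rest and 1 for the interaction. Leaving out 1 sample at a time gave 0 members in each of these 3 comparisons, 8 on activation in Cre-only cells and 6 to 8 in c-k/o cells. The members called between genotypes at 3 h with DESeq2 and 1 RUVs factor were Nfkbia, Nfkbid and Rel.

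Over all genes, 202 were called between genotypes at rest, against 378 with DESeq2's Wald test, 527 and 606 with 1 RUVs factor in edgeR and DESeq2, 595 without the 2 samples that stand apart and 84 to 135 when 1 sample was left out. At 3 h the 375 genes became 707, 1048, 1244 and 921 in the same order, 152 with only the groups compared and 180 to 632 with 1 sample left out. For the interaction the 11 genes became 79, 145, 255 and 187, and 4 to 29 with 1 sample left out.

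With a replicate block within each genotype the interaction called 4 genes. Neither that block nor one across all groups changed the number of members called in any comparison (0, 0 and 0 between genotypes, 8 and 7 on activation), and Tnfrsf13c at 3 h passed no more with the block across all groups (0.44, adjusted p = 0.0507 by edgeR). Rel on activation in c-k/o cells was -0.02 and -0.05 under the 2 blocks.

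Directions turned for values near 0, none of which passed the test in either fit unless stated. Between genotypes at rest, Nfkb1 was -0.00 with at least 10 counts in every sample, with only the groups compared and with DESeq2 and 1 RUVs factor, -0.13 without the 2 samples that stand apart, and -0.13 to 0.11 with 1 sample left out. Nfkb2 at rest was 0.01 without a filter and -0.04 to 0.04 with 1 sample left out. At 3 h Rela was -0.03 with edgeR and 1 RUVs factor, -0.04 without the 2 samples and -0.04 to 0.07 with 1 left out. In the interaction Relb was 0.04 with DESeq2 size factors, 0.05 with at least 10 counts in every sample, 0.04 with the Wald test, 0.01 with DESeq2 and 1 RUVs factor and -0.10 to 0.09 with 1 sample left out. Also in the interaction, Nfkbia and Nfkbib were -0.05 and -0.01 without the 2 samples, and with 1 left out Rel ranged from -0.65 to 0.10, Nfkbia from -0.03 to 0.17 and Nfkbib from -0.16 to 0.24.

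On activation, with 1 RUVs factor in edgeR and DESeq2, Relb was -0.18 and -0.29 in Cre-only and -0.21 and -0.28 in c-k/o cells, and Nfkbia was -0.02 and -0.13 in Cre-only cells, where its reported rise had passed. With DESeq2 and that factor Rela and Nfkbia were -0.06 and -0.02 in c-k/o cells, where both had passed without it. Rel in c-k/o cells was -0.01 with DESeq2 size factors and with the Wald test, -0.07 with at least 10 counts in every sample and -0.32 to 0.37 with 1 sample left out. With 1 RUVs factor Rel passed there, at 1.48 in edgeR and 1.41 in DESeq2 (adjusted p = 8.47e-05 and 1.48e-11). The cause of these changes was not tested. With the longest transcript as the length, resting levels were 80.5 for Nfkb1, 30.5 for Relb, 21.5 for Nfkbib, 153.8 for Nfkbid and 25.3 CPM per kb for Nfkbiz.

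Every member had at least 705 counts in every sample. The spread between c-k/o samples limits the precision of the comparisons between genotypes.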
